A study of Homo sapiens with 8 samples.

Results

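Messages of 8 interferon-induced antiviral effectors were followed in PC3 and DU145, human prostate cancer cell lines, after transfection of plasmids that carry circular RNAs. The genes were MX1, MX2, RSAD2 (viperin), CMPK2, BST2 (tetherin), IFITM1, IFITM2 and IFITM3, a set named with earlier results of these data known and taken from the tables by symbol. All 8 were listed in both count tables, among 36779 genes in all. There was 1 library each of PC3 with circ0003553, PC3 with circ0004592, DU145 with circ0003553 and DU145 with circ0004592, and the negative control plasmid of each arm in each line. The titles mark the circ0003553 arm with RCAN3 and the circ0004592 arm with STK3. The labels name no dose, time or separate cultures, so p-values measure the spread between these libraries only, which may be technical. Counts per gene do not measure the circular RNAs themselves.

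Interferons are secreted proteins that signal through JAK kinases and transcription factors to switch on genes whose products block viruses. MX1 and MX2 are dynamin-like GTPases that act on incoming viral nucleocapsids. Viperin makes a chain-terminating nucleotide from CTP, and CMPK2 is a nucleotide kinase encoded beside it. Tetherin holds budding virions on the cell surface, and IFITM1 to IFITM3 are small membrane proteins that hinder fusion of viral and cell membranes.

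Total counts were between 33444940 and 49926342 per library. CTNNA1, which is deleted in PC3, was at 3.87 to 4.64 CPM (counts scaled to library size) in PC3 and 390.5 to 425.9 CPM in DU145. The 5 epithelial markers summed to 1026 to 1306 CPM in PC3 and 3350 to 4480 CPM in DU145, and the androgen target KLK3 had at most 1 count in any library. Of 6 leukocyte markers, 5 were listed. Their summed level was 601.5 to 624.1 CPM in PC3 with a circRNA, 270.1 to 293.6 CPM in PC3 controls, 125.6 to 168.2 CPM in DU145 with a circRNA and 100.6 to 109.5 CPM in DU145 controls. Nearly all of it was the lysosomal protein CD68, which epithelial lines also express, while the pan-leukocyte gene PTPRC had at most 2 counts in any library. CD68 rose in PC3 with the circRNAs by 1.12 ± 0.11 (log2, SE; edgeR adjusted p = 6.97e-07) and in DU145 by 0.49 ± 0.11 (0.0432). Its part in the results was not tested.

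Promoter windows of 5 members hold letters that interferon-activated factors are known to bind. The interferon-stimulated response element was searched as GAAA, any 2 bases and GAAA again, on both strands and with overlaps counted. RefSeq windows of GRCh38.p14, from 250 bases before to 50 bases after an annotated start, were available for 6 members (all but MX2 and IFITM2), 11 windows in all. This spaced pair stood in 6 of the 11 windows, from 5 of the 6 genes, and in 3.57% of all 35116 windows of the genome table. CMPK2 had none. The windows below are shown because the results turn on these genes, 5′ to 3′ on the gene's own strand, with the spaced pairs, and in the upstream RSAD2 window the tighter pair GAAACGAAA, in capitals.
MX1: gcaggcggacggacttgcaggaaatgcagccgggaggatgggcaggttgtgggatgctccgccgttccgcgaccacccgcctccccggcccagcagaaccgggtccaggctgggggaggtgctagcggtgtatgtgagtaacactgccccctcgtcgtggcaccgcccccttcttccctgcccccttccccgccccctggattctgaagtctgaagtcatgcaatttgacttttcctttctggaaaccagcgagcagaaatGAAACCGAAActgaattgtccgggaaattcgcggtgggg
RSAD2 upstream start: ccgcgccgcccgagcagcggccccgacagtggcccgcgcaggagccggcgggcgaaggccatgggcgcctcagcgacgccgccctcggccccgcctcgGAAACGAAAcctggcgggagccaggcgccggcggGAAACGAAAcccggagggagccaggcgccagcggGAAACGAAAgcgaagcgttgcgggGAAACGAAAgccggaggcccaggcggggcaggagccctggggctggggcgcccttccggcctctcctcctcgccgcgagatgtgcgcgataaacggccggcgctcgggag
RSAD2 downstream start: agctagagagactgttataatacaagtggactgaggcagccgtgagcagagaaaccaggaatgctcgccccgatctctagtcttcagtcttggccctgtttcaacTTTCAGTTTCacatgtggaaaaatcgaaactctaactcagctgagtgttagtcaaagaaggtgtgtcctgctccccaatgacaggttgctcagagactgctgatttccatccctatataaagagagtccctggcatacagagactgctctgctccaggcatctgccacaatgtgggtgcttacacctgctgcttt
BST2: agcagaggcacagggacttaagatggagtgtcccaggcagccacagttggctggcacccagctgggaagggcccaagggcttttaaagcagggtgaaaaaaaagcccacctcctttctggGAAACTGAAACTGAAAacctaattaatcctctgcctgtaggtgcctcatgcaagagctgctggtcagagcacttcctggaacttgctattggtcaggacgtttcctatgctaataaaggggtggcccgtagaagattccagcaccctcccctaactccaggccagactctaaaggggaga
IFITM1: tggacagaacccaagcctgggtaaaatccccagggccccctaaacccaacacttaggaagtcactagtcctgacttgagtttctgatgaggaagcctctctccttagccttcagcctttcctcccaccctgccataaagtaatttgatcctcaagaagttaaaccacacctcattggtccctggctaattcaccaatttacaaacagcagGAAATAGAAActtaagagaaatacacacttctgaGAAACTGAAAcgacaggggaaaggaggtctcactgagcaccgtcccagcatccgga
IFITM3: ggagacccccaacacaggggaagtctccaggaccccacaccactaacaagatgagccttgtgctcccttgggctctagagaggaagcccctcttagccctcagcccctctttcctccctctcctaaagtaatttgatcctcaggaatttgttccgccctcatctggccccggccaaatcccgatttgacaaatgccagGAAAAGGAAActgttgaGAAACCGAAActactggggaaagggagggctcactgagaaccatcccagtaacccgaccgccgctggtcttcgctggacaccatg

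The MX1 window is chr21:41420308-41420607 on the plus strand. Its element begins 11 bases after the first transcribed base. The RSAD2 windows are chr2:6865635-6865934 and chr2:6877527-6877826, both on the plus strand. The BST2 window, chr19:17405581-17405880 on the minus strand, holds a pair of overlapping elements that start 130 and 124 bases before the transcribed sequence. The windows of IFITM1 (chr11:313790-314089, plus strand) and IFITM3 (chr11:320811-321110, minus strand) each hold a pair of elements close to the start. The pair GAAACGAAA in the upstream RSAD2 window was seen on reading the sequence and was then counted in all windows. It occurs there 4 times, and 2 of these copies lie in the lower CMPK2 window, which overlaps that of RSAD2 by 165 bases and runs the other way. GAAACGAAA was present in 0.162% of all windows. One more MX1 window carried it as well. These are matches of letters and not measured binding.

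**Figure D1:**
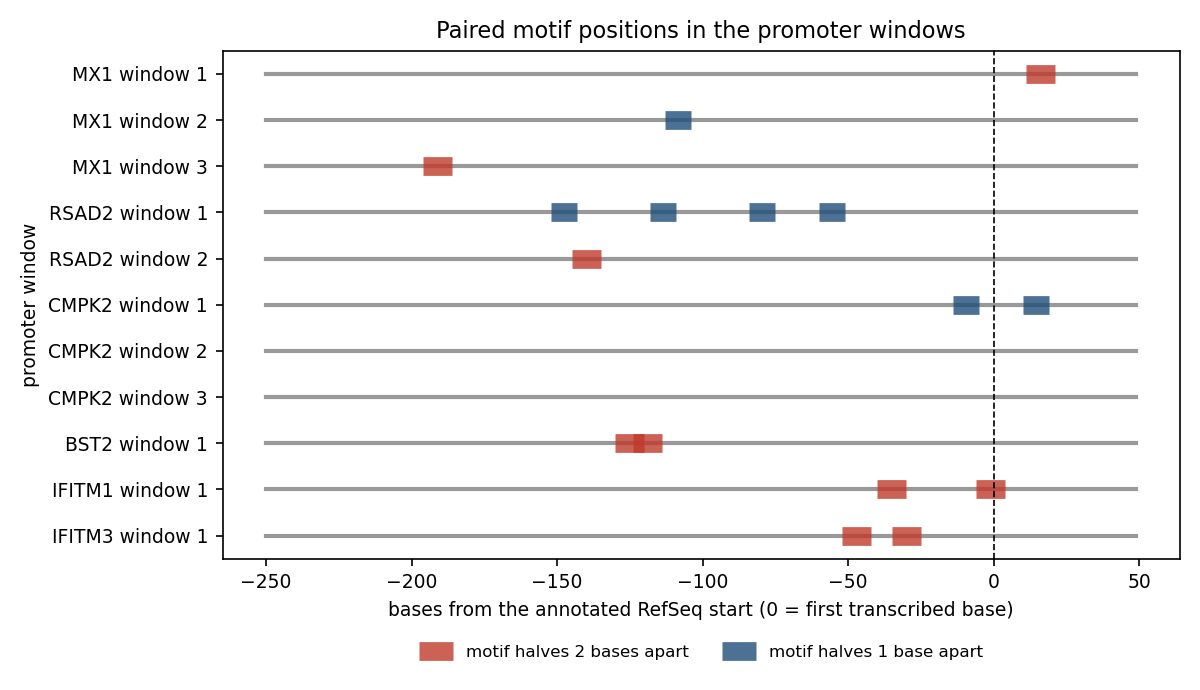
Positions of paired elements in the 11 promoter windows (rows), in bases from the annotated RefSeq start on the x axis; red bars are pairs whose GAAA units are 2 bases apart and blue bars pairs whose units are 1 base apart. Pairs with the wider spacing lie in 6 windows, and the upstream RSAD2 window holds 4 with the tighter spacing.

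With either circRNA plasmid, all 8 effector messages rose in PC3, 6 of them by 62.6-fold or more over the control of the arm, whereas in DU145 only MX2 passed the threshold when both circRNAs were pooled. The order of response in PC3 ran from RSAD2, at a log2 difference of 9.43, to IFITM3, at 2.06. The comparison asks which messages change when a circular RNA is supplied on a plasmid. Both circRNA libraries stood above both controls for 8 of 8 members in PC3, where 30.9% of the 17869 tested genes did so. In bulk RNA, more cells with a message and more of it in each cell cannot be told apart. Together the 8 genes took 0.449% and 0.442% of all counts in PC3 with circ0003553 and circ0004592, and 0.00588% and 0.00613% in the PC3 controls.

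**Figure D2:**
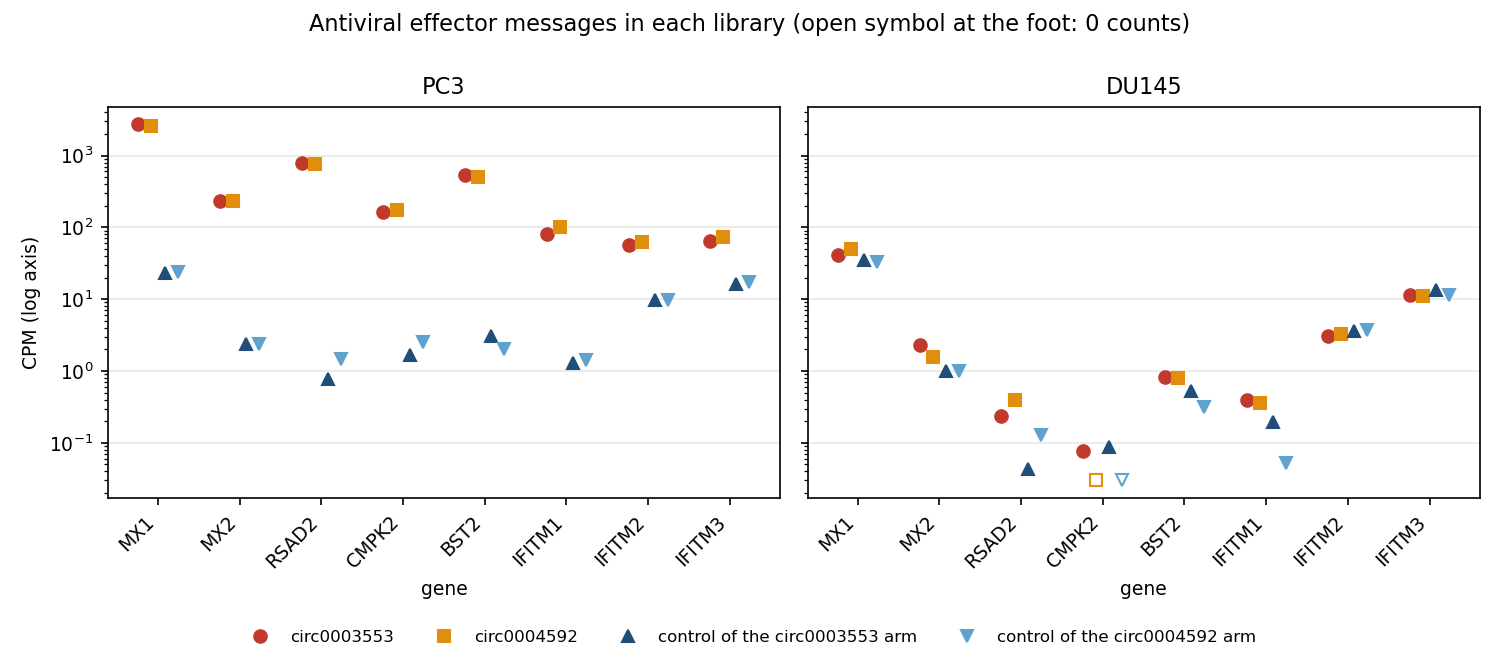
CPM of the 8 genes (log axis) in each library of PC3 (left) and DU145 (right); red circles and orange squares are circ0003553 and circ0004592, dark and light blue triangles the controls of their arms, and open symbols 0 counts. In PC3 every circRNA symbol lies above both controls, and in DU145 the symbols of IFITM2 and IFITM3 lie close together.

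The MX genes sit side by side on chromosome 21 on the plus strand, MX2 at 41361943 to 41409390 and MX1 at 41420304 to 41459214 (hg38), 10914 bases apart. MX1 had 2706 CPM with circ0003553 and 2575 CPM with circ0004592 in PC3, against 23.2 and 23.8 CPM in the PC3 controls of the same arms. MX2 had 236.0 and 235.4 CPM with the circRNAs, against 2.34 and 2.37 CPM in the controls. For both genes the libraries of a kind lay close together and the groups were far apart. MX1 rose by 6.81 ± 0.12 (log2, SE) and MX2 by 6.64 ± 0.13 when both circRNA libraries of PC3 were set against both controls (edgeR adjusted p = 7.68e-17 and 9.64e-17). AP001610.5, a noncoding gene on the other strand whose exons overlap 2.74% of the exon bases of MX1, had 436.7 and 405.0 CPM with the circRNAs and 3.79 and 3.51 CPM in the controls. Whether counting used strand is not given, so its reads cannot be separated from those of MX1. TMPRSS2, an androgen-regulated protease gene 5337 bases beyond MX1, had 8.15 and 8.13 CPM with the circRNAs and 10.5 and 10.9 CPM in the controls (log2 -0.39 ± 0.18 SE, edgeR adjusted p = 0.147).

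RSAD2 (chromosome 2, 6865806 to 6898239, plus strand) and CMPK2 (6840570 to 6866635, minus strand) are transcribed away from each other and overlap by 830 bases in the deposited gene models, 14 of them exonic in both. RSAD2 had 781.7 CPM with circ0003553 and 757.4 CPM with circ0004592 in PC3, against 0.780 and 1.45 CPM in the controls. CMPK2 had 165.3 and 174.9 CPM, against 1.65 and 2.54 CPM in the controls. The circRNA libraries were again alike, while the controls rested on few reads, 28 and 52 counts for RSAD2 and 59 and 91 counts for CMPK2. The ratio of RSAD2 to the control of its arm was therefore 1002 with circ0003553 (95% counting interval 597 to 1833) and 523 with circ0004592 (357 to 800.5), and these intervals overlap. RSAD2 rose by 9.43 ± 0.17 (log2, SE; edgeR adjusted p = 7.81e-17) and CMPK2 by 6.34 ± 0.17 (6.56e-15). RSAD2 was the 5th of 17869 tested genes in this order. It passed the filter of 1 CPM in 2 libraries through its circRNA libraries, whereas the 7 other members also passed through controls. NRIR, a noncoding gene 106 bases from CMPK2 that is known as a negative regulator of the interferon response, had 8 and 13 counts with the circRNAs in PC3 and 0 in both controls.

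BST2 (chromosome 19, 17402939 to 17405648, minus strand) had 530.3 CPM with circ0003553 and 508.4 CPM with circ0004592 in PC3, against 3.122 and 2.01 CPM in the controls. Its rise was 7.66 ± 0.15 (log2, SE; edgeR adjusted p = 9.82e-17). BISPR, a noncoding gene that begins 46 bases away on the other strand and is known to promote BST2 transcription, had 1.99 and 2.94 CPM with the circRNAs and 0.167 and 0.223 CPM in the controls. It rose by 3.64 ± 0.49 (log2, SE; edgeR adjusted p = 2.86e-05), on 65 and 97 counts with the circRNAs and 6 and 8 counts in the controls. Like RSAD2, BISPR passed the filter through its PC3 circRNA libraries.

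The IFITM genes lie within 19907 bases of chromosome 11, and their messages changed by unequal amounts. IFITM1 (313506 to 315272) had 80.2 CPM with circ0003553 and 102.1 CPM with circ0004592 in PC3, against 1.28 and 1.42 CPM in the controls. IFITM2 (307631 to 315272) had 56.2 and 62.2 CPM, against 9.64 and 9.84 CPM in the controls. IFITM3 (319669 to 327537, minus strand) had 65.6 and 72.9 CPM, against 16.2 and 17.1 CPM in the controls. Per length, the 3 genes lay between 35.4 and 93.1 RPKM (reads scaled to gene length and library size) with the circRNAs. In the controls they lay between 1.20 and 12.9 RPKM. IFITM1 rose by 6.07 ± 0.17, IFITM2 by 2.60 ± 0.10 and IFITM3 by 2.06 ± 0.10 (log2, SE; edgeR adjusted p = 1.18e-14, 2.21e-12 and 5.7e-11). The differences between these rises were not tested. The gene model of IFITM2 runs through IFITM1 on the same strand and shares 32.5% of the exon bases of IFITM1. IFITM2 and IFITM3 are also close in sequence, so their split of reads is uncertain. IFITM10, a distant family member, had 3.22 and 3.49 CPM with the circRNAs and 2.59 and 2.56 CPM in the PC3 controls, while IFITM5 and the pseudogene IFITM4P had at most 2 counts in any PC3 library.

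**Figure D3:**
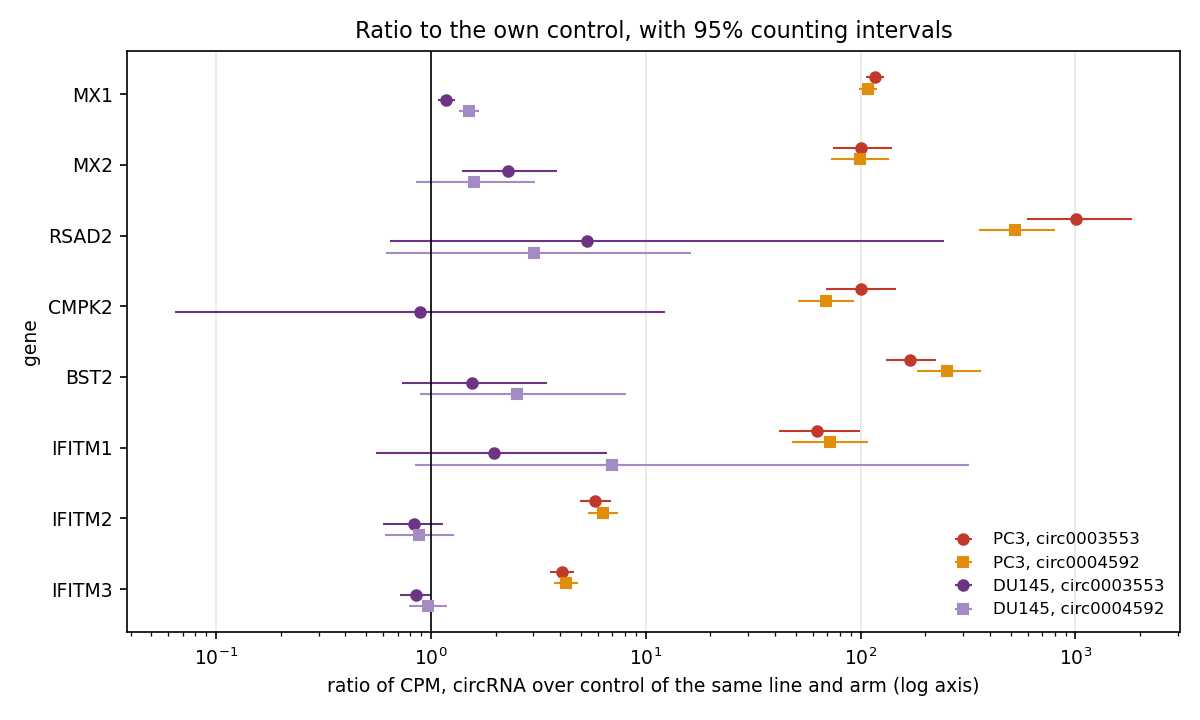
Ratio of CPM with a circRNA to CPM in the control of the same line and arm (x axis, log), for the 8 genes (rows); bars are 95% counting intervals on read pairs. PC3 ratios lie between 4.06 (IFITM3) and 1002 (RSAD2) with circ0003553, and most DU145 intervals span 1; CMPK2 has no DU145 value with circ0004592, where both libraries had 0 counts.

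No member was called different between the circRNAs in PC3. For circ0003553 minus circ0004592, 0 of the 8 members passed the threshold (edgeR, 1 with an unadjusted p under 0.05), beside 0.0672% of all tested genes. MX1 differed by 0.07 ± 0.06, RSAD2 by 0.05 ± 0.08 and BST2 by 0.06 ± 0.08 (log2, SE). IFITM1 had the largest difference of the 8, at -0.35 ± 0.11, with an unadjusted p of 0.00429 and an edgeR adjusted p of 0.361. Each circRNA is 1 library here, and the SE takes that library to vary like the controls. Set against both controls one circRNA at a time, 8 of 8 members rose with circ0003553 and 8 of 8 with circ0004592 in PC3 (edgeR adjusted p under 0.05), beside 15.6% and 13.2% of all tested genes called higher. For both circRNAs together the share of all tested genes called higher was 11.2%. The circRNA comparisons of a line share their controls.

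Per length of gene the order of the messages changed with the plasmid. With the circRNAs in PC3, BST2 was the most abundant member, at 460.4 and 447.6 RPKM, followed by MX1 at 305.1 and 294.5 RPKM and RSAD2 at 157.1 and 154.4 RPKM. IFITM1 at 72.2 and 93.1 RPKM came above IFITM3 at 47.3 and 53.3 RPKM, and then CMPK2 (37.3 and 40.1 RPKM) and IFITM2 (35.4 and 39.7 RPKM), whose ranges overlap. MX2 was the lowest of the 8 with the circRNAs, at 17.6 and 17.8 RPKM. In the PC3 controls IFITM3 led at 12.1 and 12.9 RPKM, then IFITM2 at 6.31 and 6.45 RPKM. MX1 (2.72 and 2.80 RPKM) and BST2 (2.82 and 1.82 RPKM) overlapped in the controls, and RSAD2 (0.163 and 0.304 RPKM) overlapped MX2 (0.181 and 0.184 RPKM). RSAD2 thus stood below BST2 and MX1 alone with a circRNA, and above MX2 alone in the controls by its mean of 0.233 RPKM.

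**Figure D4:**
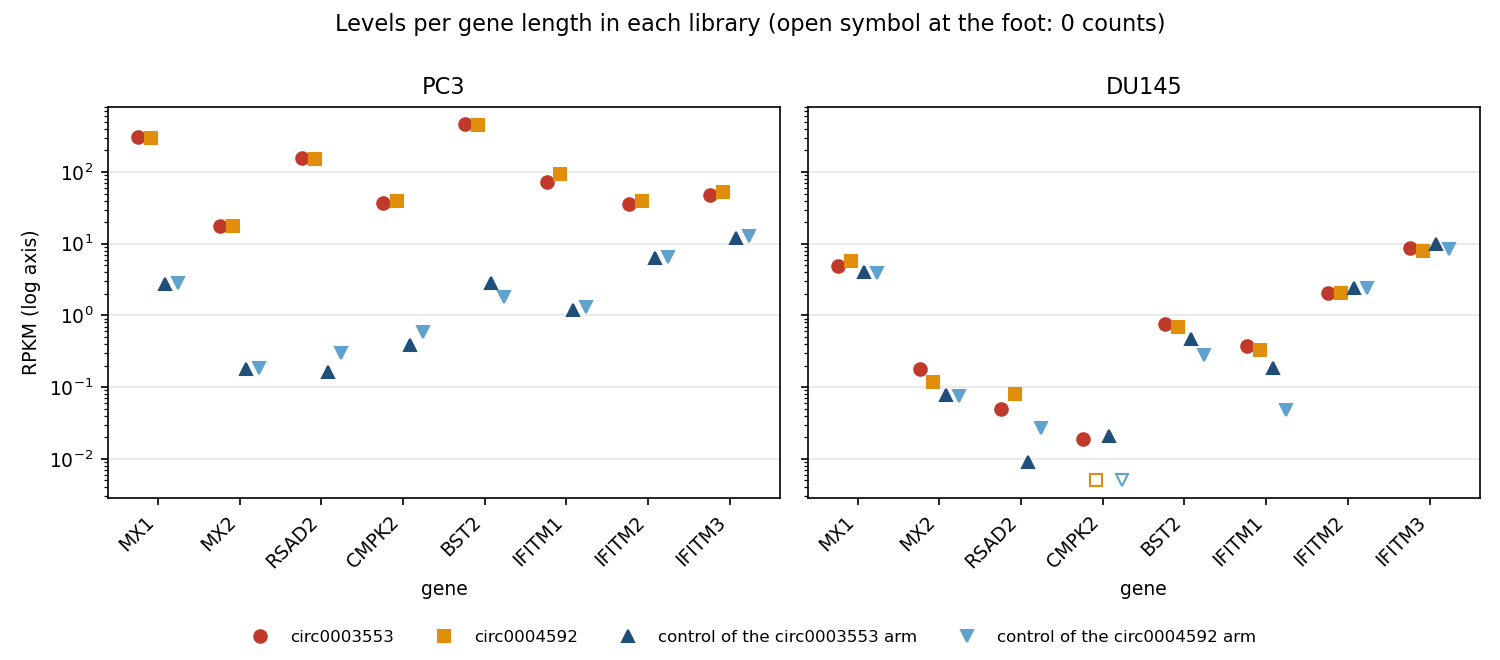
RPKM of the 8 genes (log axis) in each library of PC3 (left) and DU145 (right), with symbols for circRNA libraries and the controls of their arms (open at 0 counts). BST2 is highest in PC3 with a circRNA, at 460.4 and 447.6 RPKM, and IFITM3 is highest in every other set of libraries.

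In DU145 the same plasmids came with smaller differences than in PC3. MX1 had 40.8 CPM with circ0003553 and 50.2 CPM with circ0004592, against 34.6 and 33.3 CPM in the DU145 controls of the same arms. MX2 had 2.30 and 1.58 CPM with the circRNAs, against 1.01 and 0.992 CPM in the controls. Neither gene's groups overlapped, and both circRNA libraries lay above both controls for 18.7% of all tested genes. When both circRNA libraries were set against both controls, MX2 rose by 0.995 ± 0.19 (log2, SE; edgeR adjusted p = 0.0176) and was the only 1 of the 8 past the threshold, beside 0.532% of all tested genes called higher. MX1 had a log2 difference of 0.42 ± 0.10 and an edgeR adjusted p of 0.0515, and it passed with DESeq2 (0.00503), with no filter (0.000215) and without either circRNA library (0.000107 and 0.0331). The call of MX2 ended when the DU145 control of either arm was left out (adjusted p = 0.208 each), with log2 differences of 1.01 and 0.987 close to that of the full set. It also ended when circ0003553 was left out (log2 0.66) and on RPKM with limma (0.48, adjusted p = 0.302). For limma, 0.1 was added to each RPKM before the log2. MX2 was below that amount in the DU145 controls, at 0.0780 and 0.0764 RPKM. The part of this addition in the smaller difference was not tested.

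Taken one circRNA at a time against both DU145 controls, MX1 rose with circ0003553 by 0.26 ± 0.06 (log2, SE; edgeR adjusted p = 0.00673) and with circ0004592 by 0.56 ± 0.06 (1.33e-05). MX2 rose with circ0003553 by 1.20 ± 0.19 (0.000498) and had a log2 difference of 0.66 ± 0.24 with circ0004592 (0.0871). That made 2 of 8 members higher with circ0003553 and 1 of 8 with circ0004592, beside 4.24% and 5.24% of all tested genes. In this layout of 1 library facing 2, which edgeR also had, limma on RPKM called none of them. Between the circRNAs in DU145, MX1 was lower with circ0003553 by -0.30 ± 0.07 (log2, SE; edgeR adjusted p = 0.00698), 1 of 8 members, beside 7.93% of all tested genes called lower. Each side of this difference is 1 library from its own arm, with the spread taken from the other groups, and limma on RPKM did not call it (adjusted p = 0.167). AP001610.5, which overlaps MX1, had 6.95 and 7.59 CPM with the circRNAs and 4.73 and 4.96 CPM in the DU145 controls (log2 0.58 ± 0.11 SE, edgeR adjusted p = 0.0138).

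The other 6 members did not pass in DU145 with the TMM factors, filter and all libraries used above. RSAD2 had 12 and 13 counts with circ0003553 and circ0004592, against 2 and 5 counts in the DU145 controls, and with circ0004592 alone its adjusted p of 0.0548 passed with other size factors (0.0342), DESeq2 (0.0113) and no filter (0.0183). An arm block also brought RSAD2 with circ0003553 (edgeR adjusted p = 0.0471, against 0.219) and BST2 with circ0004592 (0.0252, against 0.225) past the threshold. IFITM1 with circ0003553 passed without the control of that arm (0.0498, against 0.0687). CMPK2 had 4 and 0 counts with the circRNAs, against 4 and 0 counts in the controls, so no change was detectable at this depth. BST2 had 42 and 26 counts with the circRNAs, against 24 and 12 counts in the controls, and IFITM1 had 20 and 12 counts, against 9 and 2 counts. These 4 messages were under 1 CPM in every DU145 library, and their ratios to the own control had wide counting intervals, from 0.647 to 245.5 for RSAD2 with circ0003553 and from 0.731 to 3.47 for BST2. With both circRNAs pooled, the log2 differences were 1.795 ± 0.61 for RSAD2, 1.51 ± 0.52 for IFITM1 and 0.91 ± 0.32 for BST2 (SE; edgeR adjusted p = 0.217, 0.223 and 0.244). That of CMPK2 was -0.006 ± 1.18. IFITM2 had 3.04 and 3.25 CPM with the circRNAs, against 3.65 and 3.68 CPM in the controls, and IFITM3 had 11.3 and 10.96 CPM, against 13.3 and 11.3 CPM. Their log2 differences were -0.23 ± 0.14 and -0.15 ± 0.11 (SE; edgeR adjusted p = 0.536 and 0.646). Both circRNA libraries lay above both controls for 5 of the 8 members, where 18.7% of all tested genes did so, and below them for 1, IFITM2, where 19.9% did so.

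The low DU145 counts can be set beside those of PC3. Counts in DU145 with a circRNA were 0.0470% (RSAD2), 0.0741% (CMPK2), 0.243% (BST2), 0.764% (IFITM1), 1.53% (MX2) and 2.38% (MX1) of those in PC3 with circ0003553. With circ0004592 they were 0.0521%, 0%, 0.155%, 0.357%, 0.670% and 1.95% in the same order of genes. For IFITM2 and IFITM3 the percentages were 8.50% and 27.2% with circ0003553, and 5.225% and 15.0% with circ0004592. These are raw counts, not scaled to library size, with no control subtracted. MX1 had 2099 and 1652 counts with the circRNAs in DU145, against 1582 and 1277 counts in the controls. The part of reads carried over between libraries in the low DU145 counts was not tested.

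The effect of the circRNAs differed between the lines for 8 of 8 members (edgeR adjusted p under 0.05), beside 7.08% of all tested genes called higher in PC3. The difference of the effects, PC3 minus DU145, was 6.39 ± 0.15 for MX1, 5.65 ± 0.27 for MX2 and 6.75 ± 0.47 for BST2 (log2, SE; edgeR adjusted p = 1.08e-14, 7.57e-11 and 1.43e-08). It was 7.63 ± 1.11 for RSAD2 (0.000127) and 6.35 ± 1.57 for CMPK2 (0.0123), whose DU145 levels rest on few counts. The IFITM genes differed by 4.56 ± 0.76 (IFITM1, 0.0005), 2.83 ± 0.17 (IFITM2, 1.82e-09) and 2.20 ± 0.15 (IFITM3, 1.04e-08). The calls of CMPK2 and IFITM1 ended without the DU145 control of the circ0003553 arm (adjusted p = 0.962 and 0.211).

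The lines also differed with the control plasmid alone. PC3 controls had more of 7 members and less of MX1 than DU145 controls, where 39.2% of all tested genes were called higher and 38.8% lower. CMPK2 had 1.65 and 2.54 CPM in PC3 controls, against 0.0875 and 0 CPM in DU145 controls, a log2 difference of 5.36 ± 0.49 (SE; edgeR adjusted p = 2.12e-08). RSAD2 differed by 3.69 ± 0.46, IFITM1 by 3.34 ± 0.40, BST2 by 2.57 ± 0.26, IFITM2 by 1.41 ± 0.12, MX2 by 1.23 ± 0.19 and IFITM3 by 0.43 ± 0.11 (log2, SE; largest edgeR adjusted p = 0.00141). The DU145 controls held few reads of CMPK2 (4 and 0 counts), RSAD2 (2 and 5 counts) and IFITM1 (9 and 2 counts). The sizes of their differences are therefore uncertain. MX1 went the other way, at 23.2 and 23.8 CPM in PC3 controls against 34.6 and 33.3 CPM in DU145 controls (log2 -0.53 ± 0.10 SE, edgeR adjusted p = 0.000136). In DU145 controls, per length, IFITM3 was highest at 9.99 and 8.42 RPKM, then MX1 at 4.06 and 3.89 RPKM and IFITM2 at 2.39 and 2.40 RPKM, all above the 5 other members.

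Other genes of the pathway were read from lists by role. Of 16 interferon receptor, JAK, STAT and feedback genes, 15 were tested, and in PC3 with the circRNAs 9 rose, 0 fell and 6 did not pass, with a median log2 difference of 0.45 beside -0.01 over all tested genes. The ISG15 protease USP18 rose by 4.61 ± 0.11, the transcription factor IRF7 by 3.22 ± 0.15 and STAT2 by 2.66 ± 0.09 (log2, SE; edgeR adjusted p at most 2.07e-11). In DU145, 1 of the 15 rose, IRF9 (0.47 ± 0.10, 0.0247). Of all tested genes, 11.2% were called higher in PC3 and 0.532% in DU145. Of 28 other antiviral effectors, 27 were tested. In PC3 22 rose, 1 fell and 4 did not pass, with a median log2 difference of 2.67, and among the rises were those of TRIM22 (8.03), IFI6 (5.68) and IFI27 (5.09). RTP4 had 155 and 144 counts with the circRNAs and 2 and 0 counts in the PC3 controls. IFI27 and RTP4 passed the filter through their PC3 circRNA libraries alone. In DU145, 2 of the 27 rose, DDX60 by 0.83 ± 0.13 and the exonuclease ISG20 by 0.60 ± 0.11 (log2, SE; edgeR adjusted p = 0.00488 and 0.0125). In the same lines the 8 members had medians of 6.49 in PC3 and 0.66 in DU145, where all tested genes had -0.01 and 0.00.

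Interferon messages themselves were scarce. Of 10 interferon genes, 6 were listed, all of type I or III, and none reached the filter. IFNB1, interferon beta, had 44 and 30 counts with circ0003553 and circ0004592 in PC3 and 0 counts in both PC3 controls, at least 8.06-fold and 5.45-fold higher when each control is set to 6 counts (3 read pairs). It had 0 counts in all 4 DU145 libraries. IFNL1, IFNL2 and IFNL3 had at most 6 counts in any library. IFNE had 7 and 12 counts with circ0003553 and circ0004592 in PC3, against 0 and 10 counts in the controls of these arms. In DU145 it had 12 and 2 counts, against 0 and 2 counts.

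Relatives and partners of the effectors were read from lists in PC3, where 11.2% of all tested genes were called higher and 9.19% lower. Counts of 0 or 1 in lists of 7 to 12 tested genes are too small to set apart from these shares. Of 9 dynamin-related GTPases, which share the fold of MX1, 0 rose and 1 fell, ATL3 (log2 -0.28 ± 0.08 SE, edgeR adjusted p = 0.0183), with a median of -0.02. Of 10 nucleotide kinases related in function to CMPK2, 0 rose and 1 fell, the thymidylate kinase DTYMK (-0.33 ± 0.10, 0.0227). Of 12 viperin partners, among them the iron-sulfur assembly protein CIAO1 and the membrane anchor VAPA, 0 passed in either direction in either line with both circRNAs pooled (edgeR, threshold 0.05), with medians of 0.00 in PC3 and -0.04 in DU145. With 1 circRNA at a time, 1 library each, their log2 differences in PC3 ran from -0.25 to 0.25 (circ0003553) and from -0.30 to 0.18 (circ0004592). In DU145 they ran from -0.22 to 0.14 and from -0.84 to 0.34 in the same order. Of 9 IFITM modifiers and partners, ABHD16A, a phosphatidylserine lipase, rose (0.66 ± 0.12, 0.000539) and SETD7, a lysine methyltransferase that acts on IFITM3, fell (-0.59 ± 0.10, 0.00029). Of 7 tested tetherin regulators, BISPR, which entered the test through the libraries where it is high, was called higher and 6 did not pass. Between the controls, 2 of the 9 IFITM modifiers were higher and 6 lower in PC3, where 39.2% and 38.8% of all tested genes were so called. The ubiquitin ligase NEDD4, which marks IFITM3 for turnover, was lower in PC3, with a log2 difference of -3.73 ± 0.10 (edgeR adjusted p = 1.89e-15), and so was the palmitoyl transferase ZDHHC20 (-1.32 ± 0.10, 2.67e-09).

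**Figure D5:**
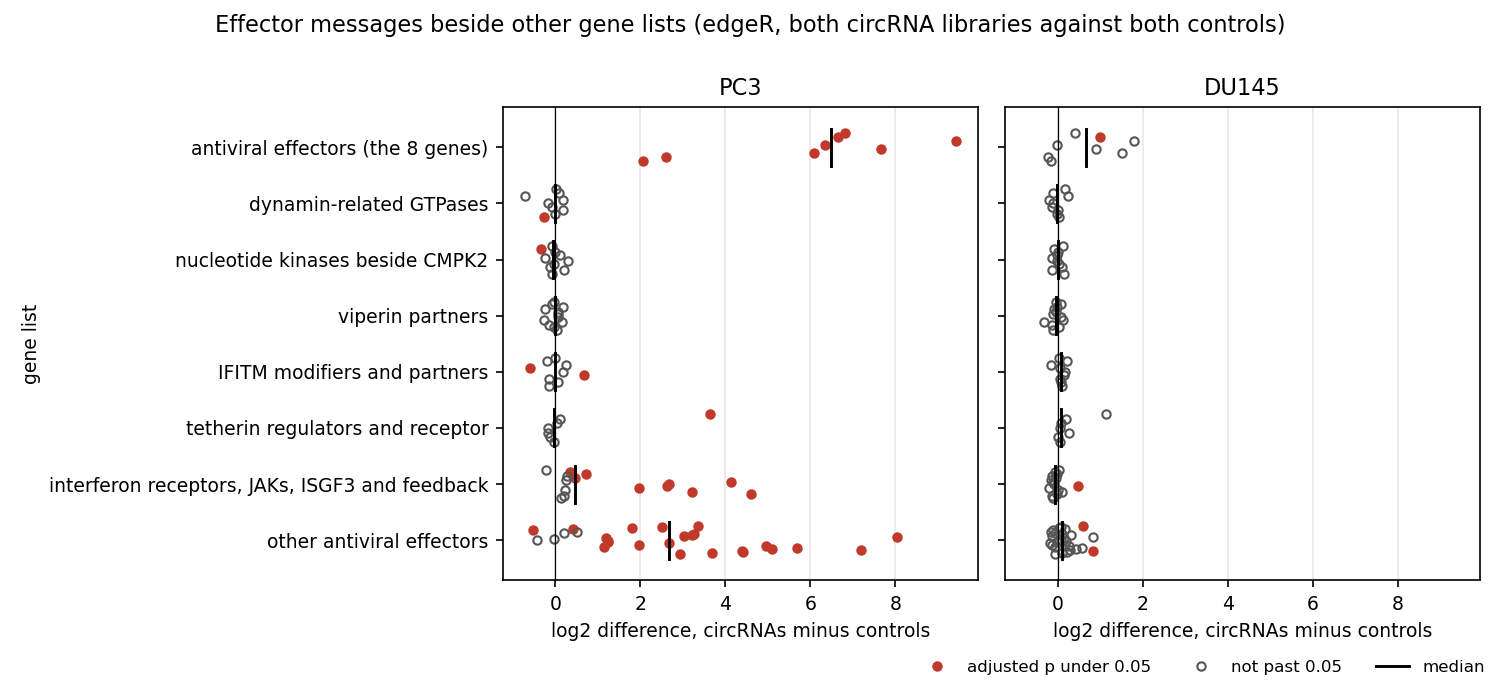
Log2 difference of both circRNA libraries minus both controls (x axis) for the 8 genes and 7 lists (rows) in PC3 (left) and DU145 (right); filled points passed an edgeR adjusted p of 0.05, open points did not, and bars are medians. In PC3 the 8 genes lie between 2.06 and 9.43, while viperin partners lie near 0.

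The genes most like each member were found by the Euclidean distance over 5 log2 values, the 4 ratios of a circRNA library to its own control and the difference between PC3 and DU145 controls, among 12290 genes. MX1 was closest to AP001610.5 (distance 0.347), which overlaps it, and to EPSTI1 (0.979), an interferon-induced gene. MX2 was closest to IFIT2 (0.673) and IFIT1 (0.917), which bind viral RNA. BST2 was closest to IFIT1 (1.95) and IFIT2 (2.19). CMPK2 was closest to GBP5 (0.979) and GBP4 (1.53), guanylate-binding proteins. IFITM1 was closest to IDO1 (1.95), which breaks down tryptophan, and to GBP5 (2.10). RSAD2 had no near match, with the chemokine CXCL11 at 3.23 and TRIM22 at 3.25. IFITM2 and IFITM3 had nearer matches than the other members apart from MX1 with AP001610.5, IFITM2 to C19orf66 (0.331), an inhibitor of ribosomal frameshifting, and ANGPTL6 (0.376), and IFITM3 to TMEM140 (0.315) and UNC93B1 (0.333), a chaperone of Toll-like receptors. Among the members, IFITM2 and IFITM3 were the closest pair (1.24), followed by MX1 and MX2 (1.97). These distances describe 8 libraries that share their controls and carry no test.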

How the data were processed

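Ribosomal RNA was removed from total RNA, and stranded paired-end libraries with molecular identifiers were sequenced, per the labels' protocols. The submitters' processing notes name Trimmomatic 0.36, featureCounts of Subread 1.5.1, edgeR 3.12.1 and hg38 without their roles. The aligner, annotation release, strand setting and use of the identifiers are not given in the sources used here. The deposited counts are raw whole-number counts per gene. The deposited RPKM equal those counts divided by listed length and library total. Of 36779 genes in the tables of both arms, 5511 stood in 1 table only, with at most 14 counts, and were given 0 in the other.

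CPM used TMM library sizes. Tests covered the 17869 genes with 1 CPM or more in 2 or more libraries. They were made by quasi-likelihood in edgeR 4.0.16 (R 4.3.3), with Benjamini-Hochberg adjustment over these genes and a threshold of 0.05. Pooled comparisons, their difference between lines and the controls used a fit of 4 groups with 4 residual degrees of freedom. Single circRNAs used a fit of 6 groups with 2, which lets the lone library vary like the others. An SE is the absolute log2 difference over the square root of F. Between 64.85% and 66.08% of counts from 1 to 20 were even, so intervals (95%, Clopper-Pearson) were computed on read pairs and cover counting error only.

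Named were all 8 members, up to 4 called genes per list, overlapping and nearest genes, and the 2 genes most like each member with a mean of 5 CPM or more. The members and lists were chosen with earlier results of these data known. Alternatives were other size factors, DESeq2 1.42.0, no filter, a filter of 5 CPM, limma 3.58.1 on log2(RPKM + 0.1), halved counts, an arm block, summed paralogs, other prior counts and each library left out.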

Additional observations from a re-analysis of the deposited data

Results flagged for a closer look

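The effect of both circRNAs differed between PC3 and DU145 for 8 of 8 members in a test of the difference itself (edgeR, fit of 4 groups). The share of all tested genes called higher in PC3 was 7.08%. The log2 differences, PC3 minus DU145, were 6.39 for MX1, 5.65 for MX2, 7.63 for RSAD2, 6.35 for CMPK2, 6.75 for BST2, 4.56 for IFITM1, 2.83 for IFITM2 and 2.20 for IFITM3. The DU145 levels of RSAD2 and CMPK2 rest on few counts. Without DU145 control replicate 1 the difference was 2.40 for CMPK2 and 3.26 for IFITM1. No group held enough libraries to test for a library far from the rest.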

How the results depend on the processing

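The titles carry no replicate number, so libraries could be paired by arm only. The arm was fitted as a block, although arm differences with a circRNA and with the control correlated little across genes (r = 0.0479 in PC3 and 0.0203 in DU145). In PC3, 8 of 8 members stayed higher for either or both circRNAs under every alternative run. The difference between lines held for 8 of 8 in each alternative but one, 6 of 8 without DU145 control replicate 1. In DU145 the pooled count of 1 was 2 with DESeq2, no filter or the 5 CPM filter, 0 with limma, and 0 to 2 with a library left out (0 without DU145 control replicate 1 or 2). With limma the counts of 2 (circ0003553), 1 (circ0004592) and 1 lower (circ0003553 minus circ0004592) were 0, and for circ0004592 the count was 2 with other size factors, DESeq2, no filter or the arm block. The causes were not tested. The circRNAs of a line, 1 library each, could not be compared with one left out.

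These log2 differences changed sign, where a sum of paralogs is set beside 1 member. For circ0003553 minus circ0004592 in PC3, MX2 was -0.007212 with no filter, -0.004968 with the 5 CPM filter and -0.01665 with limma, and the arm block gave 0.4425 for CMPK2 and -0.5935 for BST2. For the same contrast in DU145, the summed MX genes were at -0.2625 (MX2 alone 0.5393, MX1 alone -0.2964). The summed IFITM genes were at 0.017 (IFITM2 alone -0.09789). There the arm block gave 0.1936 for RSAD2, -0.6045 for BST2 and -0.02407 for IFITM3. In DU145 CMPK2, at 0 to 4 counts, was 0.00016 (5 CPM filter) and 0.003852 (arm block) pooled. With a library left out it ran from -3.903 to 3.926 pooled (0.6754 without circ0004592), from -0.161 to 4.604 with circ0003553 and from -4.802 to 0.0 with circ0004592. IFITM1 summed with its paralogs was -0.1352 pooled, -0.1295 with circ0003553 and -0.1465 with circ0004592. IFITM3 with circ0003553 ran from -0.2327 to 0.008104 with a control left out. Summed MX genes were at -0.4432 in PC3 minus DU145 controls.

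Counts over all genes moved more. In PC3 the pooled 2001 higher and 1643 lower were 1047 to 1244 and 797 to 918 with a library left out. DESeq2 gave 1538 and 1033 for circ0003553 (2789 and 2252 with edgeR) and 1217 and 1047 for circ0004592 (2350 and 2090), and limma 1471 and 1234 higher. In DU145 the pooled 95 higher and 92 lower were 5 to 662 and 3 to 831 with a library left out, 206 and 171 with no filter, 59 and 42 with the arm block and 6 and 2 with limma, and DESeq2 gave 148 lower. For single circRNAs in DU145 limma gave 0, and DESeq2 219 and 600 (circ0003553, 758 and 1125 with edgeR) and 562 and 270 (circ0004592, 936 and 831), while with a control left out they were 280 to 371 and 459 to 572 (circ0003553) and 425 to 539 and 229 to 428 (circ0004592). For circ0003553 minus circ0004592, limma called 0 in either line, DESeq2 gave 241 higher in DU145 (977 with edgeR), and in PC3 the 2 higher and 10 lower ranged from 0 to 32 and from 0 to 35. The counts for the difference between lines, 1265 and 876, were 727 to 2211 and 508 to 1775 with a library left out.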
